A study of Mus musculus with 8 samples.

Results

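The insulin-like growth factor (IGF) system was followed across sorted cells of the early mouse ureter and kidney. It comprises the ligands Igf1 and Igf2, the receptors Igf1r and Igf2r, and the binding proteins Igfbp2 to Igfbp7. Members were the probes whose gene name in the scanner files was one of these 10 symbols and that were printed on both array designs of the study. They came to 16 probes for 10 genes, of 39429 shared probes and 27300 named genes in all. Igf1 had 5 probes, Igfbp2 and Igfbp3 had 2 each, and the other genes had 1 each.

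IGF1 and IGF2 are secreted growth factors that signal through the tyrosine kinase receptor IGF1R, from which adaptor proteins pass the signal to the PI3 kinase and AKT cascade. IGF2R binds IGF2 without such signalling and carries it to lysosomes for breakdown. The secreted IGF binding proteins hold the ligands in the extracellular space, and depending on context they limit or prolong ligand action. In the mouse embryo Igf2 is the main fetal growth factor of the mesenchyme and is transcribed from the paternal copy, whereas Igf2r is transcribed mainly from the maternal copy.

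All samples were GFP-positive cells sorted from kidney rudiments of NMRI embryos at stage E11.5, each a pool of about 100000 cells from both sexes, gathered over several sorts. The 3 control arrays came from Tbx18(GFP/+) embryos, which carry 1 allele of the T-box transcription factor gene Tbx18 replaced by GFP. The 3 null arrays came from Tbx18(GFP/GFP) embryos. The 2 Tbx18VP16 arrays came from Tbx18(cre/+) embryos, with Cre in 1 Tbx18 allele and a CAG-driven transgene in the Hprt locus that encodes GFP and Tbx18 joined to the activation domain of VP16. All groups therefore carry at least 1 altered Tbx18 allele, none is wild type, and the GFP used for sorting came from the Tbx18 locus in control and null but from the Hprt locus in Tbx18VP16. The comparisons address which transcripts depend on Tbx18 and which follow when an activating form of it is made. The labels do not say how many embryos entered a pool, so p-values measure the spread between these pools.

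Tbx18, which checks the labels, read -0.02, 1.2 and 1.04 on control arrays 1 to 3 and -2.40, -1.34 and -2.35 on the null arrays. These and all levels below are log2 signal relative to the array's 75th percentile, so that a level of 0 equals that percentile. The null minus control difference was -2.77 ± 0.43 (SE, n = 3 and 3), with a limma adjusted p of 0.113, or 0.0280 with the replicate number as a block. It read 1.34 and 1.06 in Tbx18VP16, where the difference from control was +0.46 ± 0.45 (adjusted p = 0.583), so this probe does not mark the transgene group apart from control. Of the 39429 probes, 58.6% to 64.3% were well above background on an array. The Tbx18VP16 arrays stood apart from the rest: they were of the other design and on a slide of their own, so genotype, design and slide cannot be told apart in their comparisons. Control array 3 and null array 3 shared a second slide and a smaller RNA input, 10 ng against 20 ng, and null array 3 also stood apart in the erythroid markers. The 8 ureteric mesenchyme markers, Bmp4, Foxf1 and Tshz3 among them, were well above background on every control array. Of 4 liver markers, 3 were above background on no array.

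The summed levels of several marker lists moved with genotype. The summed ureteric mesenchyme level was 7.20 to 7.44 in control, 6.21 to 6.90 in null and 6.75 to 6.96 in Tbx18VP16, and of the 8 genes none was called in null (1 lower with the block, Tbx18 itself). In Tbx18VP16 against control, 4 of the 8 had a higher mean and 4 a lower one. Their median difference was -0.04, beside -0.14 for all genes, so the lower sum was not shared by the list. The gene called there, Foxf1, rose by 2.94 ± 0.44 (adjusted p = 0.0126). Renal stroma markers, 6 in number, summed to 6.34 to 6.54, 5.74 to 6.11 and 5.88 to 6.17 in control, null and Tbx18VP16. Of these the matrix proteoglycan genes Dcn and Lum were called lower in Tbx18VP16 against control. In null they were also lower, by -1.5 ± 0.31 and -2.75 ± 0.56, but were called only with the block. In Tbx18VP16 4 of the 6 had a lower mean than in control and 2 a higher one. Foxd1 was 1 of those 2, at +0.97 ± 0.36 (adjusted p = 0.164). The summed level of 7 nephron progenitor markers was 4.79 to 5.33 in control, 5.57 to 5.84 in null and 5.78 to 5.88 in Tbx18VP16, with none called in null (2 higher with the block) and 2 called higher in Tbx18VP16 against control. Ureteric epithelium markers, 9 in number, summed to 1.34 to 2.0 in control, to 1.74, 2.57 and 3.74 on null arrays 1 to 3, and to 2.11 and 2.36 in Tbx18VP16. Of these, 8 had a higher mean in null and none was called. The 7 erythroid markers summed to 2.68 to 4.91 in control and to 2.46, 4.68 and 9.08 on null arrays 1 to 3, against 1.49 and 3.0 in Tbx18VP16. Endothelial markers, 8 in number, summed to 0.59 to 1.29 in control, to 1.24 to 3.33 in null with the highest value on null array 3, and to -0.14 and -0.03 in Tbx18VP16. The 5 platelet markers summed to -4.30 to -3.39 in control, to -3.77, -1.13 and 0.63 on null arrays 1 to 3, and to 2.09 and 3.08 in Tbx18VP16, where all 5 rose against control. The part of these cell types in the differences below was not tested. In such bulk pools, fewer cells of a type and less RNA per cell cannot be told apart.

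**Figure D1:**
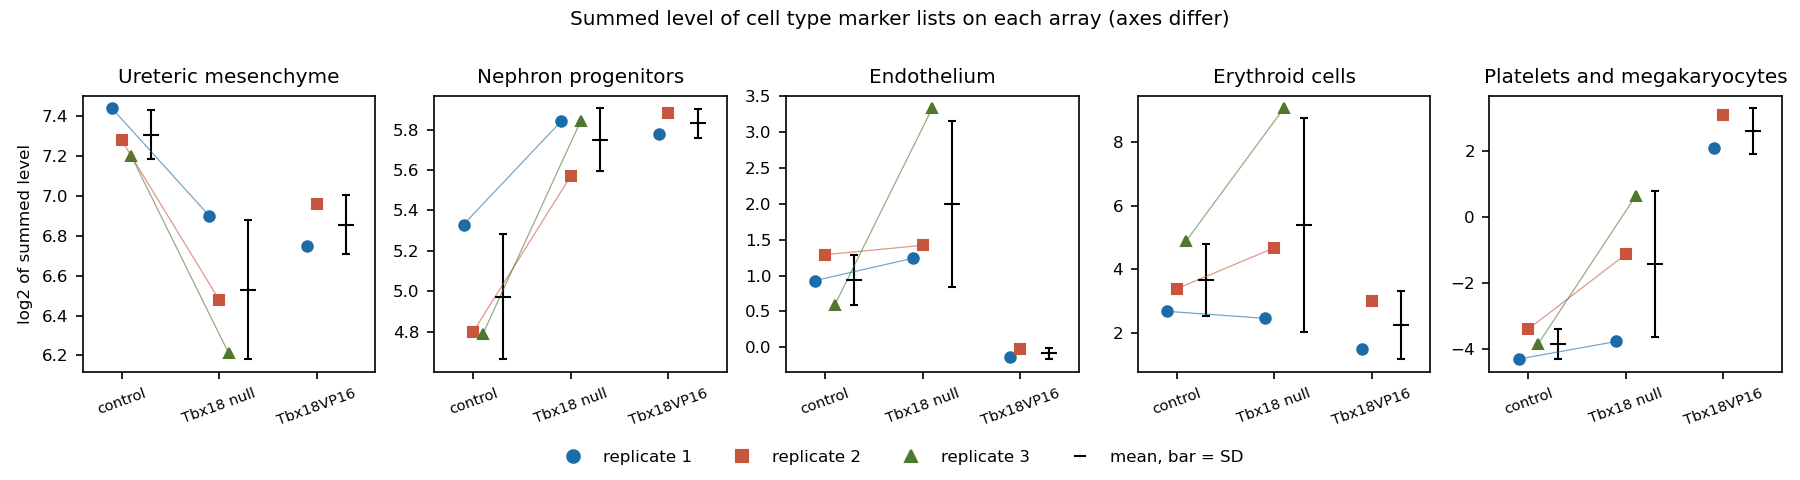
Summed level of 5 cell type marker lists on each array. The vertical axis is the log2 of the summed level (array 75th percentile = 0), with symbols for the replicate numbers, thin lines joining same-numbered control and null arrays, and bars for the mean and SD. Null array 3 has the highest erythroid sum (9.08), and both Tbx18VP16 arrays have the highest platelet sums (2.09 and 3.08).

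In the null, the binding protein genes Igfbp6, Igfbp2 and Igfbp5 had the smallest unadjusted p of the family (0.00155, 0.0177 and 0.0461), with differences of +1.59, +1.39 and +0.62, each positive in 3 of 3 pairs of same-numbered arrays. None of the 10 members passed the threshold of 0.05 on the limma adjusted p, and none did with the replicate block or without null array 3. Of all 19198 genes tested, 0% were called without the block and 1.16% with it. Without the block 920 genes (4.79%) had an unadjusted p under 0.05, no more than that threshold passes when nothing differs. With the block, which takes account of the pairs, 2654 genes (13.8%) did. Groups that do not overlap were found for 2 members, Igfbp5 and Igfbp6, against 7.74% of all genes. Across the family 6 members were higher and 4 lower in the null mean. The median difference was +0.22, beside +0.01 for all genes, and the median size of the difference was 0.65, beside 0.15.

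In Tbx18VP16 cells the Igf1 probe used for the gene was the member that passed the test, and only against null. It was 3.0-fold lower there. Of the other 4 Igf1 probes, 1 was also lower against null (-1.92 ± 0.31), and 3 gave +0.05 ± 0.90, +0.18 ± 0.91 and +0.84 ± 1.15. Against control no member passed, beside 5.21% of 20040 genes called. Against null 1 of 10 passed, beside 3.59%. Groups that do not overlap were common in both comparisons, at 47.5% and 48% of all genes, and 6 and 3 of the 10 members were among them. The Tbx18VP16 comparisons share their arrays, so their values are given side by side. The median member difference was +0.02 against control and -0.15 against null, beside -0.14 and -0.15 for all genes. The median size of the difference was 0.93 against control and 0.29 against null, beside 0.43 for all genes in both.

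**Figure D2:**
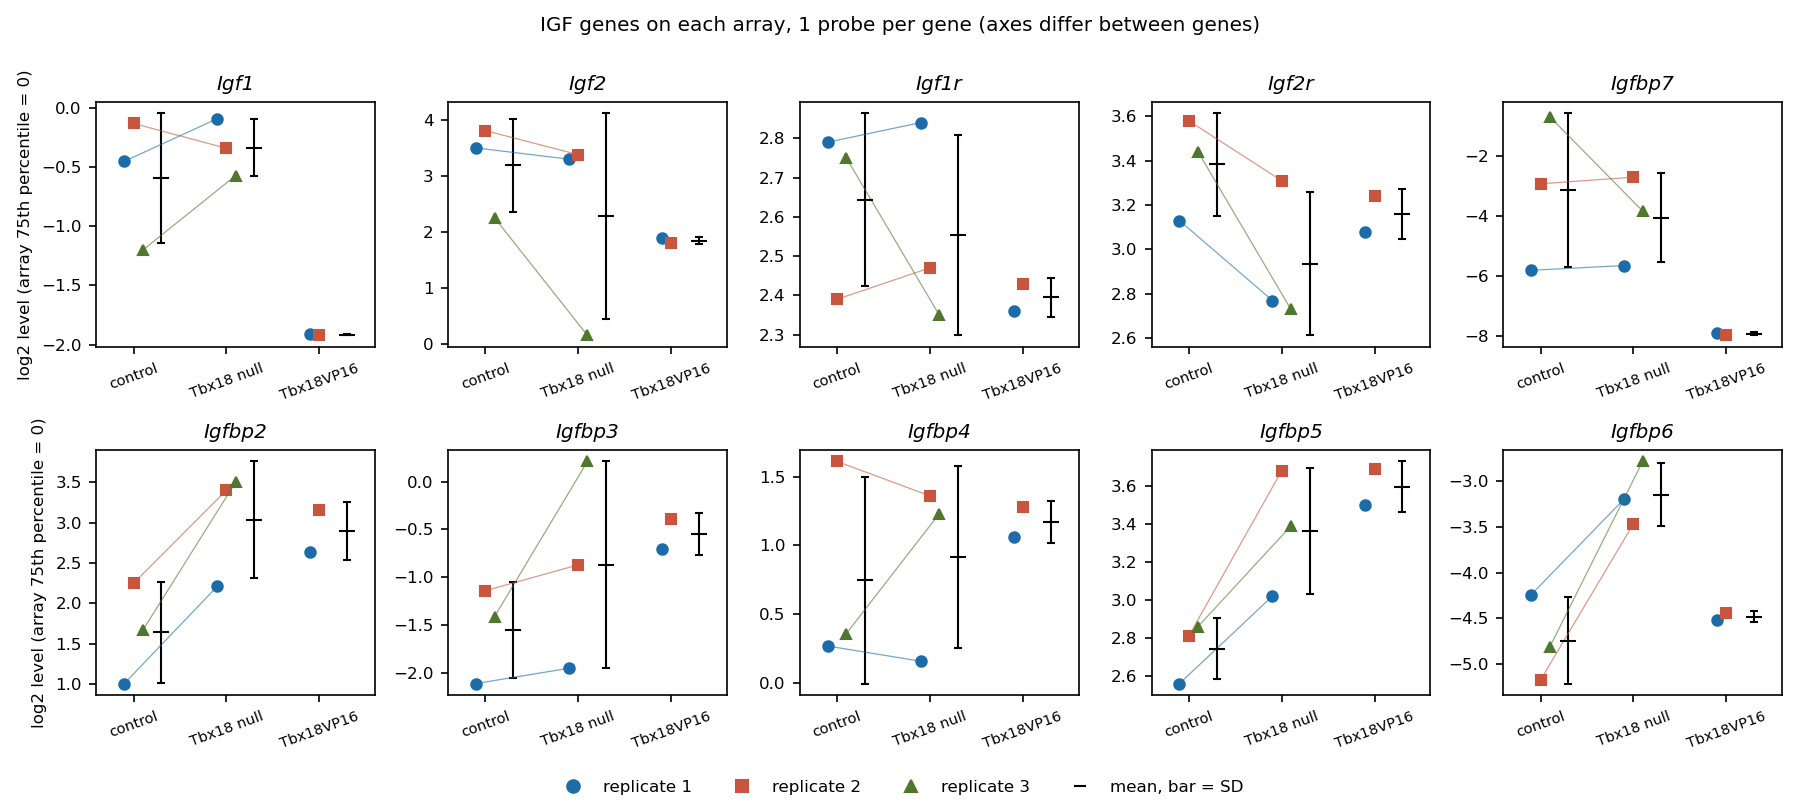
Level of each IGF gene on the 8 arrays, by the 1 probe that represents it. The vertical axes, which differ between genes, give the log2 level relative to the array's 75th percentile. Symbols mark replicate numbers, thin lines join same-numbered control and null arrays, and bars give the mean and SD. Igfbp2, Igfbp3, Igfbp5 and Igfbp6 are higher on the null array of every pair, and both Tbx18VP16 values of Igfbp7 were not well above background.

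Among the ligands, Igf1 encodes the factor that also mediates the growth effects of growth hormone after birth. Its representing probe, A_55_P2085979, lies at chr10:87378456-87378515 on the plus strand (mm9, as the files give it). It read -0.45, -0.13 and -1.2 in control, -0.09, -0.34 and -0.57 in null, and -1.91 and -1.92 in Tbx18VP16. Control and null overlapped, and both Tbx18VP16 arrays were below all others. Null minus control was +0.26 ± 0.33 (SE), with a 95% interval of -0.51 to 1.03. Tbx18VP16 minus control was -1.32 ± 0.33, with an adjusted p of 0.0624. Tbx18VP16 minus null was -1.58 ± 0.33, with an adjusted p of 0.0460. That call was lost when any 1 of the 3 null arrays was left out. It was also lost without either of the 2 Tbx18VP16 arrays, which leaves a group of 1, where few genes of any kind passed.

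The 5 Igf1 probes did not move together. The transcript to which the files assign probe A_55_P2085979 is not among the Igf1 transcripts of the RefSeq gene table used, whereas the transcript of the other 4 probes is. These 4 lie 15105 to 21125 bases further along the chromosome. Probe A_55_P2031636 (chr10:87395924-87395983) read -3.86, -4.30 and -4.47 in control, -3.59, -4.19 and -3.47 in null, and -5.48 and -5.86 in Tbx18VP16. It was lowest in Tbx18VP16 as well, at -1.46 ± 0.31 against control and -1.92 ± 0.31 against null, with adjusted p over all probes of 0.0443 and 0.0273. In Tbx18VP16 it was well above background on 1 of 2 arrays.

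Probe A_55_P2085974, farthest along the gene at chr10:87399581-87399640, read -7.21, -5.27 and -3.88 in control and -4.66, -3.28 and -1.06 in null. Its Tbx18VP16 levels were -2.02 and -2.29, above every control. This probe, A_55_P2031631 and A_55_P2085984 were each well above background on 2 of 3 control arrays, so their differences from control include a value at background. For A_55_P2085974 the differences were +2.45 ± 1.09 in null and +3.30 ± 1.15 in Tbx18VP16 against control, with an adjusted p over probes of 0.158 for the latter. Probes A_55_P2031631 and A_55_P2085984, which share 40 of their 60 bases, both gave +1.42 for Tbx18VP16 minus control, with adjusted p over probes of 0.416 and 0.406. Over the 8 arrays, these 3 correlated with one another at 0.93 to 1.0, and with the other 2 at -0.52 to -0.16, while those 2 correlated at 0.88. On each of the 3, control array 3 was above control array 1 and null array 3 was the highest null. Null array 3 was also the highest null for the ureteric epithelium, endothelial, erythroid, leukocyte and platelet sums. In Tbx18VP16 the 3 probes were above every control. So were the platelet (2.09 and 3.08), nephron progenitor (5.78 and 5.88) and ureteric epithelium (2.11 and 2.36) sums. All 7 nephron progenitor markers had a higher mean there than in control, and 2 were called. Of 9 ureteric epithelium markers 7 had a higher mean and 2 a lower one, Cdh1 among them (-1.26 ± 1.55), and none was called. Both endothelial sums in Tbx18VP16 (-0.14 and -0.03) were below every control. Of 7 endothelial markers tested, 6 had a lower mean than in control and 1 a higher one, and only Kdr was called. The part of these cell types was not tested. With the brightest of the 4 probes in place of A_55_P2085979, Tbx18VP16 minus control was +1.42 and minus null +0.18, and the call was gone, with an adjusted p of 0.929. The sign of the Igf1 difference between Tbx18VP16 and control therefore depends on the probe.

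**Figure D3:**
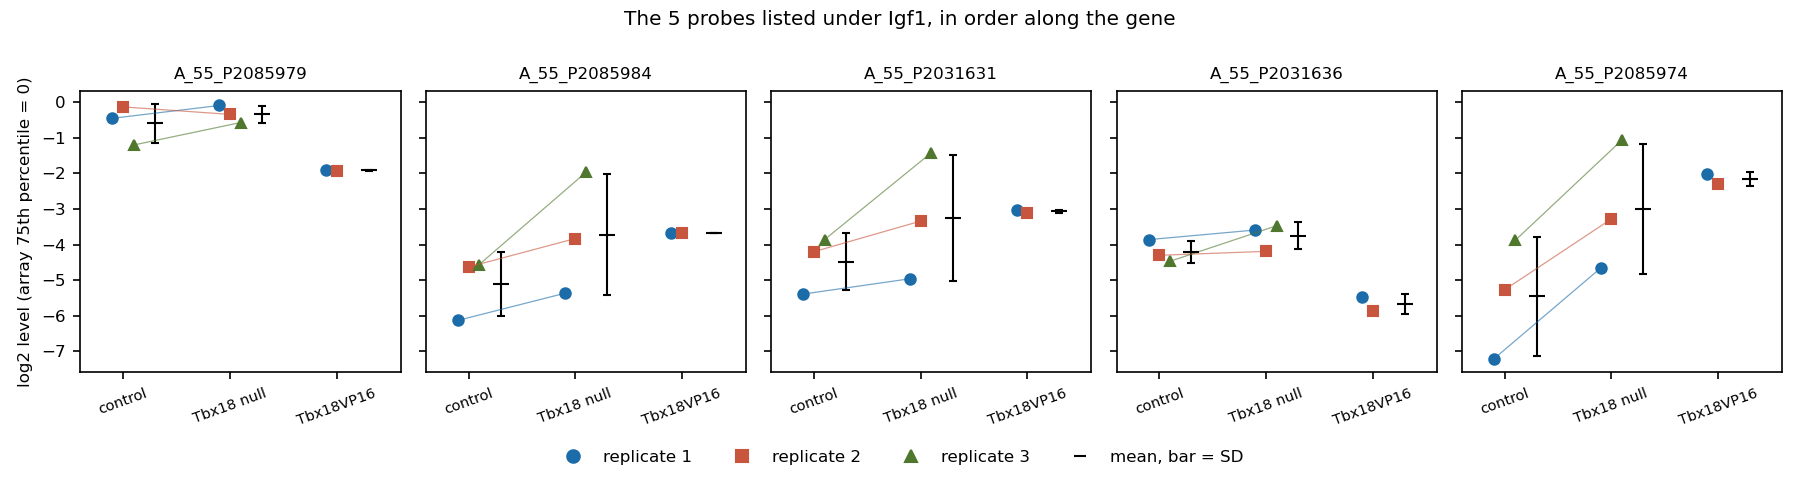
The 5 probes listed under Igf1, in their order along the gene, on the 8 arrays. The vertical axis is the log2 level relative to the array's 75th percentile, on which levels of different probes are not comparable. A_55_P2085979 and A_55_P2031636 are lowest in both Tbx18VP16 samples, and the other 3 probes have their lowest mean in control.

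The 3 genes whose levels were most like A_55_P2085979 over the 8 arrays, among 20039 genes compared, were Lrrc27 (Pearson r = 0.999), Gpa33 (0.995) and Krtap19-5 (0.994). Gpa33 encodes a surface antigen of gut epithelium and Krtap19-5 a keratin-associated protein of hair. The level of Lrrc27 was -2.02 to -0.96 in control, -1.29 to -0.94 in null, and -2.73 and -2.81 in Tbx18VP16. These correlations describe 8 arrays that fall into 2 designs.

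Igf2, the fetal ligand, was measured by a probe at chr7:149839661-149839720 on the minus strand (mm9). It read 3.50, 3.81 and 2.25 in control, 3.30, 3.38 and 0.15 in null, and 1.89 and 1.80 in Tbx18VP16. Null array 3 had the lowest value, and the other 2 null arrays were within the control range. Null minus control was -0.91 ± 0.89, with same-numbered differences of -0.20, -0.43 and -2.10. Without null array 3 the mean difference turned to +0.16, and within the first slide it was -0.31. That array also had the highest erythroid, endothelial, ureteric epithelium and leukocyte sums. Both Tbx18VP16 arrays were below all controls, at -1.34 ± 0.94 (adjusted p = 0.435). The means thus fell in the order control, null and Tbx18VP16, with no neighbours differing beyond their spread. The place of null in that order rested on null array 3, which was below both Tbx18VP16 arrays.

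H19, the noncoding gene next to Igf2 that is transcribed from the maternal copy, read 6.58, 6.37 and 6.04 in control, 6.80, 6.45 and 6.73 in null, and 5.75 and 5.97 in Tbx18VP16. Its same-numbered null minus control differences were 0.22, 0.09 and 0.69, the last on the pair with the Igf2 difference of -2.10. The genes most like Igf2 over the arrays were Peg12 (r = 0.969), itself an imprinted gene, the Wnt receptor gene Fzd2 (0.963) and Igsf3 (0.947). Peg12 read 1.64 to 2.07 in control, 1.91, 1.84 and 1.01 in null, and 1.47 and 1.31 in Tbx18VP16. Igf2bp1, Igf2bp2 and Igf2bp3, whose proteins bind Igf2 mRNA, did not pass in any comparison.

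Neither receptor gene passed in any comparison. Igf1r, the signalling receptor, read 2.79, 2.39 and 2.75 in control, 2.84, 2.47 and 2.35 in null, and 2.36 and 2.43 in Tbx18VP16. Its groups overlapped in every comparison, and the 95% interval of null minus control ran from -0.67 to 0.50. Igf2r, the clearance receptor, read 3.13, 3.58 and 3.44 in control, 2.77, 3.31 and 2.73 in null, and 3.08 and 3.24 in Tbx18VP16. It was lower on the null array of every pair, at -0.45 ± 0.27 (adjusted p = 1, or 0.279 with the block). These intervals leave room for a difference in Igf2r between -1.07 and 0.18. Igf1r had the narrowest range of the 10 representing probes over the 8 arrays, at 0.49.

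Of the binding protein genes, Igfbp6 encodes the one with a strong preference for IGF2. Its probe at chr15:101979852-101979911 (mm9, plus strand) read -4.24, -5.17 and -4.81 in control, -3.20, -3.47 and -2.79 in null, and -4.52 and -4.44 in Tbx18VP16. All 3 null arrays were above the other 5. The null minus control difference was +1.59 ± 0.32, a 3.0-fold higher mean, with same-numbered differences of 1.04, 1.70 and 2.02. Its size was above that of 98.7% of genes tested, yet the adjusted p was 0.224, or 0.0577 with the block. Tbx18VP16 lay within the control range and differed from null by -1.33 ± 0.33 (adjusted p = 0.0674). With normexp background correction the null difference was +0.94.

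Igfbp2 and Igfbp5 encode binding proteins that are widespread in embryonic tissue, and IGFBP5 also binds extracellular matrix. Their genes lie tail to tail on chromosome 1, 5590 bases apart with no RefSeq gene between them (GRCm38.p6). Igfbp2, by the probe at chr1:72898677-72898736 (mm9), read 1.01, 2.25 and 1.67 in control, 2.21, 3.40 and 3.50 in null, and 2.64 and 3.15 in Tbx18VP16. The lowest null array was just below the highest control, while within pairs the null was higher by 1.21, 1.15 and 1.82. The mean difference was +1.39 ± 0.46, with a 95% interval of 0.32 to 2.46 and an adjusted p of 0.687, or 0.0515 with the block. Its second probe gave +1.35 ± 0.62. In Tbx18VP16 both arrays were above all controls, at +1.25 ± 0.49 (adjusted p = 0.179), and they differed from null by -0.14 ± 0.49.

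Igfbp5, by the probe at chr1:72904829-72904888 (mm9, minus strand), read 2.56, 2.81 and 2.86 in control, 3.02, 3.68 and 3.39 in null, and 3.50 and 3.69 in Tbx18VP16. Every null and every Tbx18VP16 array was above every control. The differences from control were +0.62 ± 0.26 in null (adjusted p = 1, or 0.152 with the block) and +0.85 ± 0.26 in Tbx18VP16 (0.106). Null and Tbx18VP16 differed by 0.23 ± 0.26 and overlapped. Over the 8 arrays Igfbp2 and Igfbp5 correlated at 0.90, the highest of all member pairs. The summed levels of 5 marker lists also separated control from null arrays. Sums were higher in null for nephron progenitors and for macrophages and leukocytes (0.18 to 0.55 in control, 0.57 to 1.36 in null). The neural crest and neuron sums were higher too (0.71 to 0.99 and 1.04 to 1.12), and the ureteric mesenchyme and renal stroma sums were lower. Of the genes tested, 6 of 7 nephron progenitor, 3 of 5 leukocyte and 4 of 6 neural markers had a higher mean in null. A lower mean was found for 6 of 8 ureteric mesenchyme and 6 of 6 renal stroma markers. None of these genes was called without the block. The part of these cell types in the Igfbp2 and Igfbp5 values was not tested. Without null array 3, which had the highest erythroid sum, the null differences were +1.16 for Igfbp2, +0.61 for Igfbp5 and +1.41 for Igfbp6. Within the first slide, which holds 2 arrays per group, they were +1.18, +0.66 and +1.37.

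The 250 bases before the start of each of these 3 genes, for Igfbp2 the first of 2 annotated starts, are shown because their null differences had the smallest unadjusted p of the family and because Tbx18 is a DNA-binding factor. The core of the T-box site, GTGTGA, and its reverse complement TCACAC are in capitals. Sequences are from RefSeq (GRCm38.p6), written 5′ to 3′ on the gene's strand.
Igfbp2, chr1:72824230-72824479, plus strand: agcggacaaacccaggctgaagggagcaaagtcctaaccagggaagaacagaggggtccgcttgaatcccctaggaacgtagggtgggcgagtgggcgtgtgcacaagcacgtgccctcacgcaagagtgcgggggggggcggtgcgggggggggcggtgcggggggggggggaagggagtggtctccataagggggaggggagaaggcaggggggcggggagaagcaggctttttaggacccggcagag
Igfbp5, chr1:72874866-72875115, minus strand: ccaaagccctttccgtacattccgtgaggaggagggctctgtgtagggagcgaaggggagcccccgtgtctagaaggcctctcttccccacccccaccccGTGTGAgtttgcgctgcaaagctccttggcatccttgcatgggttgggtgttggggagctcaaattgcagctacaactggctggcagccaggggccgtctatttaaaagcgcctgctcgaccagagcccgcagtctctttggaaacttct
Igfbp6, chr15:102143936-102144185, plus strand: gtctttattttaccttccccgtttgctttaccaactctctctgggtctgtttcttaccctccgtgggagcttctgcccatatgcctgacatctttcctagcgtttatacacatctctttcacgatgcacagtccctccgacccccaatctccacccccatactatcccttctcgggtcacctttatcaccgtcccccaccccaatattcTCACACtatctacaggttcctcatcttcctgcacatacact
The windows of Igfbp5 and Igfbp6 hold 1 core each, starting 150 and 41 bases before the start, and neither of the 2 Igfbp2 windows holds one. Of the 14 windows of the 10 members, 3 hold a core, the other being 1 of 4 windows of Igf2. The longer motif AGGTGTGA, with its reverse complement TCACACCT, which contains the core, is in none. Among 32851 RefSeq windows of the same length, 12.3% hold the core and 1.1% the longer motif. A match of letters is a description of the window and not a measured site.

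Igfbp3 encodes the main carrier of IGFs in adult blood. It read -2.11, -1.14 and -1.41 in control, -1.95, -0.87 and 0.21 in null, and -0.70 and -0.39 in Tbx18VP16. The highest value was on null array 3, and control and null overlapped. Same-numbered differences were 0.16, 0.27 and 1.61, with a mean of +0.68 ± 0.55, which was +0.14 without null array 3. Both Tbx18VP16 arrays were above all controls, at +1.01 ± 0.58 (adjusted p = 0.344). Its second probe was above background on 1 of the 8 arrays and was not tested. Igfbp4, whose protein is cleaved by the protease PAPP-A, read 0.27, 1.61 and 0.36 in control, 0.16, 1.36 and 1.23 in null, and 1.06 and 1.28 in Tbx18VP16. Its groups overlapped throughout, and null minus control was +0.17 ± 0.47.

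Igfbp7 encodes a related protein that binds IGFs weakly and is prominent in blood vessels. It read -5.82, -2.94 and -0.71 in control and -5.66, -2.72 and -3.85 in null, so its spread within control, with an SD of 2.56, was the widest of the 10 representing probes. It was well above background on 2 of 3 control and 2 of 3 null arrays. Null minus control was -0.92 ± 1.29, and without control array 3 it was +0.30. In Tbx18VP16 it was not well above background on either array, so folds there are lower bounds, set against the lowest signal well above background on those arrays. It was at least 6.52-fold lower than control and at least 3.44-fold lower than null. The limma fit used the readings themselves and not these bounds. It gave -4.78 ± 1.36 against control (adjusted p = 0.0870) and -3.85 ± 1.36 against null (0.154). The control and null means in the bounds include a reading not well above background. These bounds rest on the spread within control and null: without control array 3 the first was 2.79-fold and without control array 1 it was 16.4-fold, and leaving out null arrays in turn gave 2.15-fold to 5.96-fold for the second. Endothelial sums were also lowest in Tbx18VP16. Of 7 endothelial markers tested, 6 had a lower mean there than in control and 1 a higher one. Only Kdr was called against control (-1.34 ± 0.29). Against null all 7 had a lower mean, and 1 was called. The part of these cells in the Igfbp7 value was not tested.

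**Figure D4:**
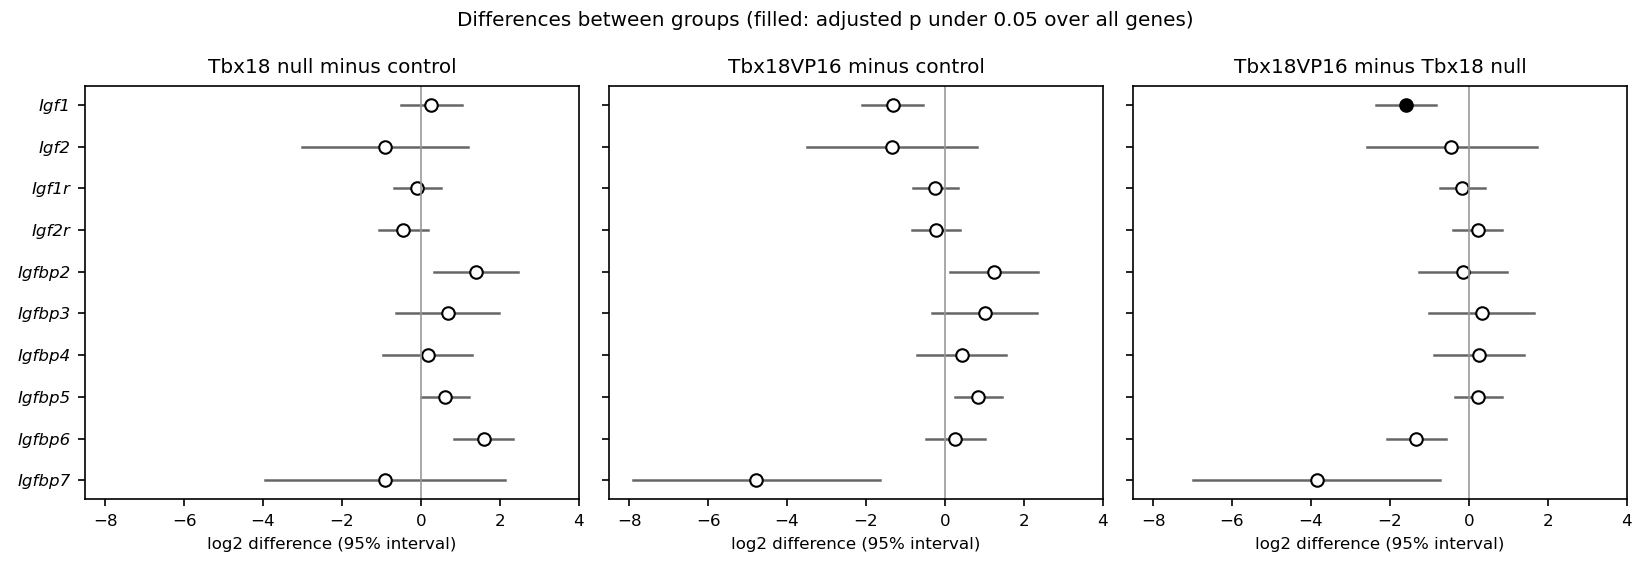
Differences of the 10 IGF genes between groups, on the log2 scale, with 95% intervals from limma. Filled circles mark an adjusted p under 0.05 over all genes tested. The Igf1 probe in Tbx18VP16 against null (-1.58) is filled, and Igfbp7 has the widest interval in each comparison. Its Tbx18VP16 levels were not well above background, so its size there is not a measured fold.

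Among the members, Igfbp2 correlated over the 8 arrays with Igfbp5 (r = 0.90) and Igfbp3 (0.86), and Igf1r ran opposite to Igfbp4 (-0.93) and Igfbp3 (-0.86). Igf2 ran opposite to Igfbp3 (-0.79), both with their extreme value on null array 3, and Igf2r opposite to Igfbp6 (-0.83). These are descriptions of 8 arrays that share slides and designs.

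The rest of the pathway was followed in 42 further genes. In the null 37 of them were tested and none passed, with or without the block. Their differences were split into 19 higher and 18 lower, with a median of +0.01, equal to that of all genes. The gene of smallest p was Stc1. It encodes stanniocalcin 1, an inhibitor of the protease PAPP-A, and read -4.64, -3.61 and -4.50 in control and -3.53, -3.08 and -3.02 in null. Every null array was above every control, at +1.04 ± 0.34 (adjusted p = 0.680). Igfbp1, which lies next to Igfbp3, and Stc2, a second stanniocalcin gene, are named after their values were seen. Each was well above background on none of the control arrays and 2 of the 3 null arrays, too few to be tested in that comparison. Same-numbered null minus control differences were 0.37, 2.22 and 2.74 for Igfbp1 and 1.89, 1.2 and 3.42 for Stc2. The carrier gene Igfals and Igfbpl1 were above background on no array.

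In Tbx18VP16 39 of the 42 were tested, and 3 of these passed against control, beside 5.21% of all genes, and 2 against null, beside 3.59%. Both counts are near the background. Foxo1, a transcription factor that AKT holds out of the nucleus, rose from -0.29, -0.19 and 0.02 in control to 1.52 and 1.40, by 1.61 ± 0.23 (adjusted p = 0.0105). It rose against null as well, where it had read -0.04, -0.17 and 0.26, by 1.44 ± 0.23 (0.0218). Pik3cb, a catalytic subunit of PI3 kinase, rose from -5.14, -4.94 and -5.02 in control to -3.17 and -3.07, by 1.91 ± 0.38 (0.0300). Irs4, an adaptor of the receptors, fell from -3.73, -3.98 and -3.92 in control to -5.22 and -5.46, a difference of -1.46 ± 0.25 (0.0180), and by -1.45 ± 0.25 against null (0.0263). All of these calls were lost when either Tbx18VP16 array was left out, with adjusted p from 0.147 to 0.281 against control and from 0.225 to 0.331 against null, and those of Pik3cb and Irs4 also with normexp background correction (0.0638 and 0.0630 against control). With 1 Tbx18VP16 array left, 38 or 44 genes of all passed against control, and the differences kept their size, at 1.55 and 1.67 for Foxo1, 1.96 and 1.86 for Pik3cb, and -1.58 and -1.34 for Irs4. Pik3cb also lost its call without any 1 of the control arrays (0.0591 to 0.0841), as did Irs4 without control array 2 (0.0591). Against null, Foxo1 and Irs4 lost theirs without null array 2 (0.0770 and 0.0784). The median difference of the 39 genes was -0.02 against control and -0.12 against null, beside -0.14 and -0.15 for all genes.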

How the data were processed

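RNA of sorted GFP-positive cells was measured on 8 arrays of 1 colour (Agilent Feature Extraction 10.7.3.1, per the submitters' processing notes). Per the file headers, the deposited scanner files give background-subtracted intensity for each spot, and they flag outliers, saturation and whether the signal stands well above background. A value table deposited by the authors holds linear intensity too. Sorted, its 8 columns are identical (lowest 10, median 93.77, Spearman correlation with the scanner values 0.987 to 0.988), so it is quantile-scaled with a floor, and it served as an alternative.

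Per probe, the 4 spots were averaged without outliers (1.86% to 3.14% of spots), log2 was taken and the array's 75th percentile over 39429 probes common to both designs was subtracted. That percentile was 975.9 to 2128.9 in processed signal, and no spot was saturated. The number of arrays limits the precision. Probes other than the members were named through RefSeq tables (GRCm38.p6): 27591 by accession, 3493 by symbol and 393 by synonym, the symbol given by the scanner files was kept for 5113, and 2839 were unnamed. Members went by the name in the files.

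Testing required a probe well above background on 3 or more of the 6 arrays in the null comparison, or 2 or more of all 8 for Tbx18VP16. Each gene was represented by its tested probe of highest mean level. All 10 members met this, of 16 probes 15. Groups were compared with limma 3.58.1 (lmFit, eBayes, R 4.3.3), two-sided, with Benjamini-Hochberg adjustment over all genes and a threshold of 0.05, and the fits were tested on simulated data. Null and control were fitted on their 6 arrays, and Tbx18VP16 in 3 group means on 8 arrays, which pools the spread. Same-numbered control and null arrays deviated together from their group means (r = 0.803, 0.698 and 0.411), and those of Tbx18VP16 did not. The control and null numbers were therefore taken as pairs in the replicate block and in the same-numbered differences. The main fit had no block, so its SEs, intervals and p-values did not use the pairs.

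Named genes were all members, Tbx18, pathway genes passing the test (otherwise the 2 of smallest p), the 3 genes most like Igf1 and Igf2, and up to 3 genes of a marker list. A gene that this rule takes is not reported here. The members and lists were chosen with earlier results of these data known. Alternatives covered scaling, background correction, filter, probe, slide, replicate and block.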

Additional observations from a re-analysis of the deposited data

How the results depend on the processing

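Null against control, no member passed under any of the alternatives run. The limits are 2 or 3 pools per group, a Tbx18VP16 group confounded with design and slide, and dim probes for Igfbp6, Igfbp7 and 4 of the 5 Igf1 probes. The probes of the called pathway genes Pik3cb and Irs4 were dim as well. Of 702 values of single genes under alternatives, 634 kept direction and side of the threshold, 33 lost the call, 11 gained it and 24 turned.

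Against control, 1 member passed in Tbx18VP16 without control array 1 (Igfbp7, adjusted p = 0.0225), 1 without control array 3 (Igf1, -1.63, 0.0263), and 0 without control array 2. For Igfbp7 that p belongs to its readings and not to the bound of at least 16.4-fold. Scaling to the 75th percentile of all spots not marked as controls, an alternative chosen after seeing the data, gave 1 (Igfbp5, +1.32, 0.0268). With the replicate number as a block, 5 passed (Igf1, Igf2, Igfbp2, Igfbp5 and Igfbp7), although the Tbx18VP16 numbers share only a number with the others: deviations correlated at 0.02 and 0.057 for number 1 and at -0.263 and -0.16 for number 2. Against null, the block gave 2 (Igf1 and Igfbp6). The count there was 0 without any 1 array, without the filter (Igf1 adjusted p = 0.0519), with every probe tested (0.0542), with slide as a random block (0.0549), with the spot-level scaling (0.0813) and with the brightest other Igf1 probe (0.929), also chosen after seeing the data. The block changed no call of a member in null against control, where 223 genes passed with it and 0 without, and the fit of all 8 arrays gave 67 there. The block also brought Tbx18 past the threshold (0.0280).

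The following differences turned in sign. In null against control on the first slide alone, Igf1r gave 0.07 and Igfbp4 -0.18. In Tbx18VP16 against control, normexp gave -0.07 for Igfbp6, the spot-level scaling 0.22 for Igf1r and 0.24 for Igf2r, and the other Igf1 probe 1.42. Against null, that scaling gave 0.02 for Igf2, 0.31 for Igf1r and 0.32 for Igfbp2, and that probe 0.18 for Igf1. Leaving out arrays in turn gave, null against control, Igf1 -0.04 to 0.49, Igf2 -1.46 to 0.16, Igf1r -0.23 to 0.01, Igfbp4 -0.07 to 0.60 and Igfbp7 -2.25 to 0.30. For Tbx18VP16 against null it gave Igf2 -1.50 to 0.12, Igfbp2 -0.56 to 0.11, Igfbp3 -0.21 to 0.87 and Igfbp4 -0.12 to 0.48.
Another scaling moved the median of all genes by 0.124 (quantile), 0.123 (authors' values) and 0.463 (spot-level) in Tbx18VP16 against control, and by 0.138, 0.138 and 0.461 against null. Higher and lower calls against control were 388 and 656, then 510 and 579 with quantile scaling, 526 and 561 with the authors' values, 234 and 491 with normexp and 1120 and 253 with spot-level scaling. Against null they were 221 and 499, then 320 and 387, 347 and 386, 147 and 292, and 733 and 169. Total calls ranged from 38 to 891 against control and from 1 to 597 against null with 1 array left out, and the blocks gave 3521 and 3163. The causes were not tested.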
